A study of Homo sapiens with 28 samples.

Results

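The genes described here are 29 listed targets of the transcription factor p53, measured in human embryonic stem (ES) and embryonal carcinoma (EC) cell lines. They were taken by symbol from a list of p53 targets that was drawn up with earlier results of these data known. The gene of p53 itself was not among the listed symbols and was not analysed here. Of the 29 genes, 24 had a transcript cluster (the array's unit for a gene) that carried a single symbol. TNFRSF10C had 2 such clusters, which gave 25 of the 22011 clusters on the array. The other 5 genes, BTG2, FDXR, GDF15, AEN and PPM1D, had no cluster of their own and were read as the mean of their probesets (the array's unit for an exon or part of one). In all, 433 of 287329 probesets belonged to the 29 genes.

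RNA was measured on 14 Affymetrix Human Exon arrays, from cells sorted for SSEA3, a glycolipid antigen of the pluripotent cell surface. The 6 ES lines (H14, H9, Shef3, Shef5, Shef 6 and Shef7), which derive from embryos, were kept on feeders, here mouse embryo fibroblasts inactivated with mitomycin C. Their knock-out DMEM held FGF at 4 ng/ml and Serum Replacement at 10%. The 5 EC lines (2102Ep, 833KE, NCCIT, NTERA2 and TERA1), which derive from germ cell tumours, were kept on plastic without feeders, and their high-glucose DMEM held fetal calf serum at 10%. For 2102Ep, 833KE and NTERA2 (n = 3) a further array came from cells under the conditions of the ES lines. Each line was represented by 1 array per growth condition, so the error within a group is the spread between lines and no line was repeated within a condition.

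p53 is a transcription factor that is stabilised when DNA is damaged or cells are stressed. It then raises genes that stop the cell cycle, repair DNA or start apoptosis, and also genes such as MDM2 that bring p53 down again. Pluripotent cells and germ cell tumours are known for a ready apoptotic response to DNA damage.

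Levels are given as deposited, on a log2 scale, so a difference of 1 is a 2-fold difference. The array medians lay between 6.19 and 6.39 and the lower quartiles between 4.51 and 4.59. Of the 12 pluripotency markers, the 8 with a cluster had mean levels of 9.97 to 11.16 over the 14 arrays. POU5F1, a core pluripotency factor read as the mean of its probesets, was low, at 4.49 to 5.79 in ES, 5.30 to 6.12 in EC on plastic and 5.38 to 6.47 in EC on feeders. These means used only probesets with a single symbol. NANOG, read in the same way, was at 8.58 to 10.66, 10.89 to 12.35 and 10.07 to 11.95 in these groups. SOX2 was at 10.04 to 10.91, 10.11 to 10.90 and 9.60 to 10.40. ZFP42, a marker of undifferentiated cells, was at 3.41 in the ES line Shef3 and at 4.22 in NTERA2 on plastic, against 7.81 to 11.32 in the other arrays. The mean level of 11 of 13 fibroblast marker genes was 5.80 to 6.91 in ES, 5.33 to 5.89 in EC on plastic and 5.98 to 6.24 in EC on feeders. Within that list the ES medians ran from 2.33 for DCN and 2.41 for LUM to 7.90 for COL1A1, 7.98 for COL1A2 and 8.99 for THY1. COL1A1 was lower in EC on plastic by -1.65 (limma adjusted p = 0.0188). Of the 12 clusters of that list, 3 had a positive difference from ES on plastic (median -0.50, 1 called lower). On feeders 4 of the 12 were positive (median -0.35, 0 called). THY1 was among the positive ones, at 0.91 on plastic and 1.26 on feeders (limma adjusted p = 0.341 and 0.136). Of 16 markers of differentiated cells, 0 had a positive difference in EC on plastic against ES (median -0.54, 4 called lower), with CER1, a Nodal antagonist, at 4.82 in EC and 10.13 in ES. On feeders 6 of the 16 were positive (median -0.29, 1 called lower). The part of these markers in the members' differences was not tested. Array codes in the labels ran up to 13 for 4 arrays (H14, Shef5, and NTERA2 and 2102Ep on feeders) and from 17 for the other 10.

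The promoter windows of the members, 250 bases before to 50 bases after each start in RefSeq (GRCh38.p14), were searched on both strands for the p53 response element decamer, of which p53 binds a pair. A window was held for 21 of the 29 members. The decamer was found in 6 of the 21, namely PLK2, FAS, AEN, FDXR, DDB2 and SESN1. By windows this was 6 of 32 (18.8%), against 2329 of 35116 windows of all genes (6.63%). The stretches around these matches are shown because they are where the members' own promoters carry the letters of the element. Capitals mark the decamer, or in DDB2 the pair, and each is written 5′ to 3′ on the gene's strand.
PLK2: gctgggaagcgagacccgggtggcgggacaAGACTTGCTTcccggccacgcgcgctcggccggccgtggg
FAS: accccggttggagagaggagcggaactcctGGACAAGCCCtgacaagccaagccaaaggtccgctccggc
AEN: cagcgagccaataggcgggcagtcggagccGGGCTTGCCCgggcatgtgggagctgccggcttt
FDXR: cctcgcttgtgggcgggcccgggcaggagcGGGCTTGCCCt
DDB2: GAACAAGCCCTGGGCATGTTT
SESN1: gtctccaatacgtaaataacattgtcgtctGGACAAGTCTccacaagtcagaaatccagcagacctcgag

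The PLK2 stretch lies at chr5:58460179-58460248 on the minus strand and the FAS stretch at chr10:88991279-88991348 on the plus strand. AEN is at chr15:88621276-88621339 (plus), FDXR at chr17:74872995-74873035 (minus) and SESN1 at chr6:109008998-109009067 (minus). AEN and FDXR held the same decamer, GGGCTTGCCC. In DDB2, whose product recognises ultraviolet damage in DNA, 2 decamers lay 1 after the other at chr11:47214979-47214999 (plus), from base 5 to base 25 counted from the start. A pair with a spacer of at most 13 bases occurred in 10 of all 35116 windows (0.0285%), and DDB2 was the 1 member that had it. A match of letters is a description of the window and not a measured binding site, and a window without a match says nothing of p53 at that gene.

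The contrasts were tested with limma, with Benjamini-Hochberg adjustment over all clusters and a threshold of 0.05. Comparing EC on plastic with ES asks how the tumour lines differ from ES lines, although cell type and growth condition change together. Comparing EC on feeders with ES keeps the growth condition the same, and EC on feeders with EC on plastic asks what the growth condition does within 3 lines. In NTERA2 and 2102Ep the array code changes with it, from 25 and 19 on plastic to 11 and 13 on feeders. Growth condition and array code cannot be told apart in these lines. The first pair of contrasts share the 6 ES arrays, so their values are set side by side and are not independent.

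In EC on plastic against ES, 1 of the 25 member clusters was higher (ZMAT3) and 0 were lower, against 4.6% of all clusters called in either direction (3.26% higher and 1.34% lower). An unadjusted p under 0.05 was reached by 7 of the 25, against 19.2% of all clusters. The median difference of the 25 was 0.19, against 0.005 over all clusters. The 2 groups overlapped in all 25, whereas 4.37% of all clusters had groups that did not overlap. In EC on feeders against ES, 2 of the 25 were higher (GADD45A and PLK3) and 0 were lower, against 2.29% of all clusters called (1.56% higher and 0.731% lower). The median difference was 0.27, against 0.04 over all clusters, and 6 of the 25 reached an unadjusted p under 0.05, against 17.6%. In these bulk samples, fewer cells expressing a gene and less RNA per cell cannot be told apart.

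**Figure D1:**
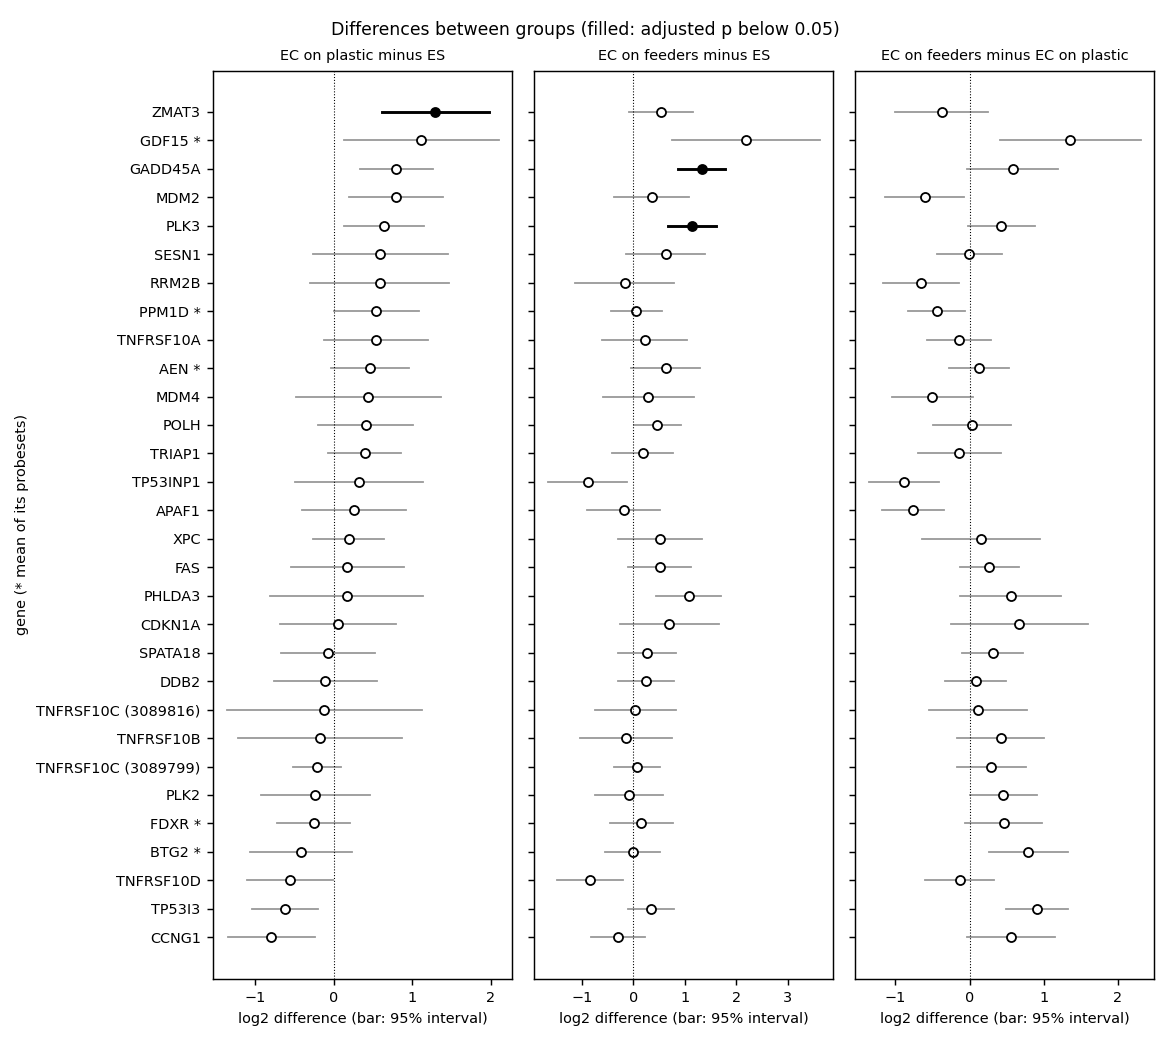
The plot shows the log2 difference of each member (x axis) in the 3 comparisons, with 95% intervals from limma, filled where the adjusted p was below 0.05, and ordered by the first comparison. ZMAT3 is filled in EC on plastic against ES at 1.30, GADD45A and PLK3 in EC on feeders against ES at 1.33 and 1.14, and none in EC on feeders against plastic.

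Among the feedback regulators, no cluster passed the test in either comparison with ES. MDM2, the ubiquitin ligase that targets p53 for degradation, was at 10.20 ± 0.64 (SD, n = 5) in EC on plastic and 9.41 ± 0.33 (n = 6) in ES, a difference of 0.79 (SE 0.28, limma adjusted p = 0.133). The EC lines 2102Ep, 833KE and TERA1, at 10.48, 10.80 and 10.63, lay above the highest ES line at 9.76, while NCCIT at 9.25 lay below the ES median of 9.45. Without NCCIT, MDM2 passed the test. MDM2 on feeders was at 9.01 in NTERA2, 9.65 in 2102Ep and 10.66 in 833KE. CCNG1, a cyclin that recruits a phosphatase to MDM2, had the lowest difference of the 25 in EC on plastic, -0.79 (SE 0.25, limma adjusted p = 0.104), and on feeders -0.30 (adjusted p = 0.578). MDM4, the MDM2 partner that masks the p53 activation domain, was highest in NTERA2 on plastic at 8.60, then H9 at 7.79 and NTERA2 on feeders at 7.71, with the other arrays at 6.07 to 7.12. PPM1D, a phosphatase that switches the damage signal off, differed from ES by 0.54 on plastic and 0.06 on feeders as a mean of 17 probesets (limma adjusted p = 0.214 and 0.928).

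The cell cycle arrest genes held both members that were higher in EC on feeders than in ES. Against EC on plastic neither was called, with differences of 0.58 for GADD45A and 0.43 for PLK3 (limma adjusted p = 0.355 for each). GADD45A, a stress-induced protein that acts on cell cycle kinases and DNA repair, lay between 7.43 and 7.98 (median 7.62) in the 6 ES lines. It was at 9.10 in NTERA2, 8.51 in 2102Ep and 9.34 in 833KE on feeders. All 3 EC arrays on feeders lay above all 6 ES arrays. The means were 8.98 ± 0.43 (SD, n = 3) and 7.65 ± 0.21 (n = 6), a 2.51-fold difference of 1.33 (SE 0.21, limma adjusted p = 0.0126). The call held in every alternative setting that kept more than 1 EC array, with differences of 1.15 to 1.57. With codes from 17 only, where 833KE was the 1 EC array, the difference was 1.74. On plastic, GADD45A was at 8.55 in NCCIT, 8.06 in 2102Ep, 9.21 in 833KE, 8.50 in TERA1 and 7.94 in NTERA2. NTERA2 lay just below the highest ES line, and the difference of 0.80 (SE 0.21) missed the threshold (limma adjusted p = 0.0563). It was called without NTERA2 (0.92, limma adjusted p = 0.0281) and was 0.61 without 833KE (0.0907). As the mean of its 8 probesets the difference was 0.85 (adjusted p = 0.024, where 8.29% of 16909 genes were called).

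PLK3, a stress-responsive kinase of the polo family, was between 6.03 and 6.73 (median 6.40) in ES. On feeders it was at 7.10 in NTERA2, 7.69 in 2102Ep and 7.83 in 833KE, all above the highest ES line. The difference was 1.14 (SE 0.21), or 2.2-fold, with means of 7.54 ± 0.39 (SD, n = 3) and 6.41 ± 0.25 (n = 6) and a limma adjusted p of 0.0253. The PLK3 call was lost without 2102Ep, 833KE, Shef 6, Shef3 or Shef7 (adjusted p = 0.0502 to 0.0958) and with the spread of all 14 arrays (0.059). Groups that did not overlap, as for GADD45A and PLK3, were found in 8.87% of all clusters in this comparison. Of the 3 EC arrays on feeders, 2 have codes up to 13. With the code as a block the differences were 1.36 for GADD45A and 1.10 for PLK3 (limma adjusted p = 0.0199 and 0.0442). On plastic PLK3 was at 7.12 in 2102Ep, 7.69 in 833KE and 7.46 in TERA1, above all ES lines, and at 6.44 in NCCIT and 6.53 in NTERA2, within them. That difference was 0.64 (SE 0.24, adjusted p = 0.152).

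CDKN1A, which encodes the cyclin-dependent kinase inhibitor p21 and is the best known p53 target, had means close to each other in EC on plastic and ES, at 7.61 ± 0.83 (SD, n = 5) and 7.55 ± 0.38 (n = 6). The difference was 0.06 with a 95% interval of -0.68 to 0.79 (limma adjusted p = 0.956). The lines were far apart, with TERA1 at 8.69 above all ES lines and NCCIT at 6.62 and NTERA2 at 6.97 below all of them. The highest level of the 14 arrays was 9.64, in 833KE on feeders. CDKN1A on feeders differed from ES by 0.70 (SE 0.44, adjusted p = 0.451). PLK2, another polo family kinase, was lowest in NTERA2 on plastic at 5.54 and highest in 833KE on feeders at 7.71. BTG2, an antiproliferative cofactor of mRNA decay, was at 7.07 in NCCIT as a mean of 7 probesets and between 5.23 and 5.47 in the other 4 EC arrays on plastic, against 5.60 to 6.40 in ES.

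**Figure D2:**
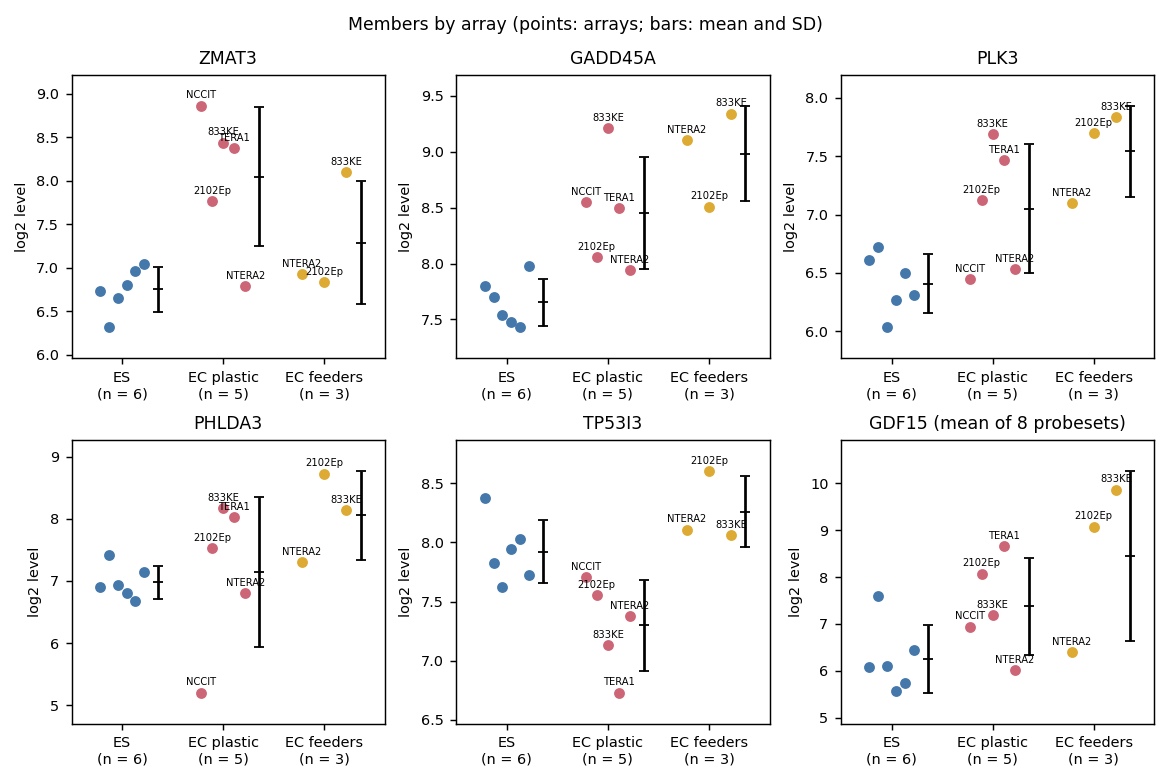
Each panel plots the log2 level of a member in every array (points), by group, with the mean and SD of the group (bars), and EC points carry their line. GADD45A and PLK3 on feeders lie above all ES arrays, whereas ZMAT3 on plastic is high in 4 lines and at 6.79 in NTERA2.

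Of the death receptor genes, 0 of 6 clusters were called in either comparison with ES, and 2102Ep stood apart from the other lines. TNFRSF10B, a receptor for the death ligand TRAIL, lay between 7.75 and 8.28 (median 8.04) in ES. On plastic it was at 8.02 in NCCIT, 8.54 in 833KE, 8.84 in TERA1 and 8.31 in NTERA2, and at 5.55 in 2102Ep. The 2102Ep line was low again on feeders at 6.51, where NTERA2 and 833KE were at 8.60 and 8.56. TNFRSF10A, the other TRAIL receptor with a death domain, was also lowest in 2102Ep, at 5.08 on plastic and 4.92 on feeders. The other 12 arrays lay between 5.44 and 7.02, with NTERA2 and NCCIT highest among EC lines. TNFRSF10D, a decoy receptor with a truncated death domain, was at 6.40 and 6.16 in 2102Ep and between 6.99 and 8.09 elsewhere.

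TNFRSF10C, a decoy receptor anchored in the membrane without a death domain, was read by 2 clusters that did not vary alike. Cluster 3089799 stayed between 4.53 and 5.31, while cluster 3089816 ran from 3.62 in NCCIT to 7.45 in TERA1. FAS, the receptor of FAS ligand, was close to the lower quartile of the arrays, from 3.72 in NCCIT to 5.78 in TERA1. The 4 TNFRSF10 genes are neighbours in the genome. Of 27 clusters of other protein-coding genes within 15 positions of them in RefSeq order, 23 lay below the ES mean in 2102Ep on plastic, with a median of -0.37. The same count was 21 in NCCIT (median -0.27), 19 in 833KE (-0.20), 15 in TERA1 (-0.07) and 6 in NTERA2 (0.18) on plastic. On feeders it was 18 in 2102Ep (-0.05), 22 in 833KE (-0.12) and 8 in NTERA2 (0.28). Single neighbours in 2102Ep ran from -1.83 (STC1) to 0.785 (NEFL) on plastic and from -1.99 (STC1) to 0.97 (NEFL) on feeders. CHMP7, next to TNFRSF10A, was at -1.45 and -1.27 there, and RHOBTB2, next to TNFRSF10B, at -0.32 and -0.08. STC1 was also low in 833KE, at -1.35 on plastic and -2.02 on feeders. These neighbours were examined after the values of 2102Ep had been seen, and their part in the receptor levels was not tested.

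**Figure D3:**
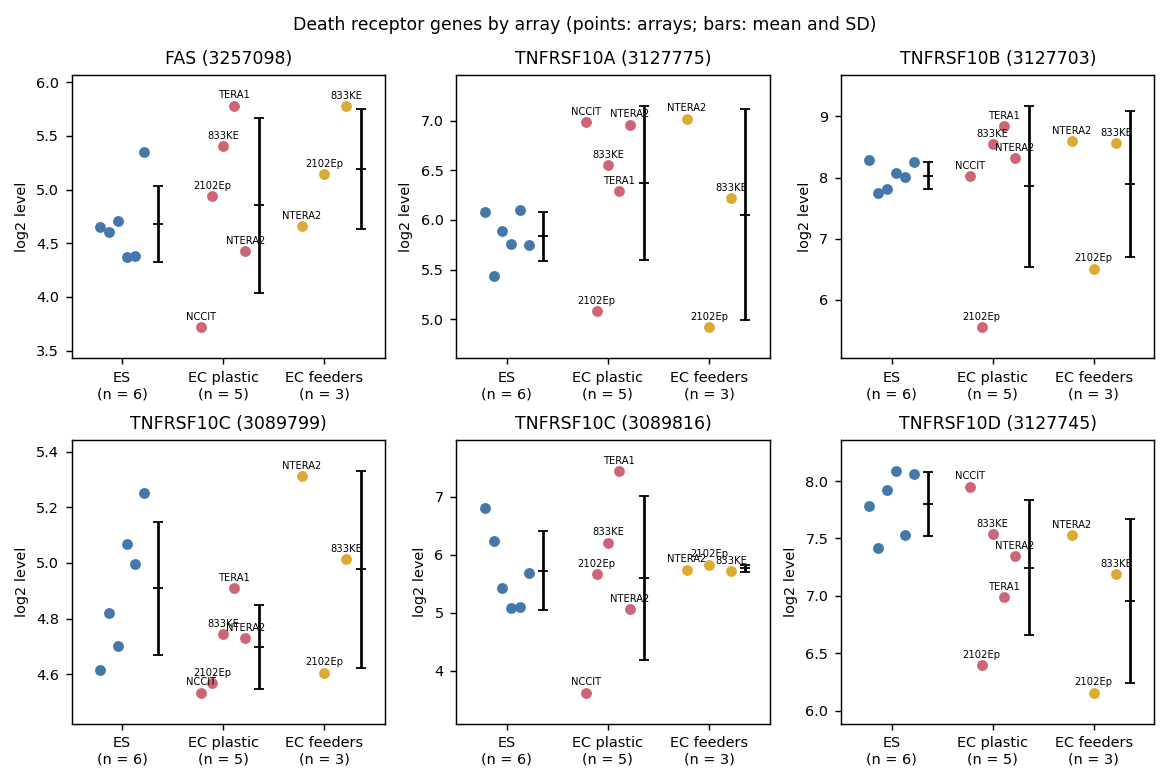
Each panel plots the log2 level of a death receptor cluster in every array (points), by group, with the mean and SD of the group (bars). The 2102Ep arrays are the lowest of their groups for TNFRSF10A, TNFRSF10B and TNFRSF10D, and TNFRSF10B is at 5.55 and 6.51 there against 7.75 or more in all other arrays.

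Among the apoptosis genes, ZMAT3 was higher in EC on plastic than in ES. ZMAT3, a zinc finger protein that binds RNA, lay between 6.32 and 7.05 (median 6.77) in the 6 ES lines. On plastic it was at 8.86 in NCCIT, 7.77 in 2102Ep, 8.44 in 833KE, 8.37 in TERA1 and 6.79 in NTERA2. NTERA2 lay within the ES lines and the other 4 EC lines above them. The means were 8.05 ± 0.80 (SD, n = 5) and 6.75 ± 0.26 (n = 6), a 2.45-fold difference of 1.30 (SE 0.31, limma adjusted p = 0.0366). The call was lost in 14 of 20 alternative settings, including without any of NCCIT, 2102Ep, 833KE, TERA1, H14, Shef5, Shef 6, Shef3 and Shef7 (adjusted p = 0.0558 to 0.0887) and among arrays with codes from 17 (1.18, adjusted p = 0.136), and the difference was 0.92 to 1.61 over all 20. On feeders ZMAT3 was at 6.93 in NTERA2 and 6.84 in 2102Ep, within the ES lines, and at 8.10 in 833KE, with a difference of 0.54 (SE 0.28, adjusted p = 0.354).

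PHLDA3, a small protein that restrains the survival kinase AKT, was between 6.67 and 7.42 (median 6.92) in ES. On feeders it was at 7.30 in NTERA2, 8.73 in 2102Ep and 8.14 in 833KE, of which NTERA2 overlapped the ES lines. The difference was 1.07 (SE 0.28, limma adjusted p = 0.0814), and as a mean of 6 probesets 1.00 (adjusted p = 0.0319, where 4.8% of 16909 genes were called). Without NTERA2 it was called at 1.45 (limma adjusted p = 0.0159), and without 2102Ep it was 0.74 (0.259). On plastic PHLDA3 spanned the whole range, from 5.20 in NCCIT through 6.80 in NTERA2 and 7.53 in 2102Ep to 8.03 in TERA1 and 8.17 in 833KE. That difference was 0.16 (SE 0.45, adjusted p = 0.89), and it was -0.09 without 833KE and -0.06 without TERA1.

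TP53I3, an oxidoreductase linked to reactive oxygen species, lay between 7.62 and 8.38 (median 7.89) in ES. On plastic it was at 7.71 in NCCIT, 7.55 in 2102Ep, 7.13 in 833KE, 6.73 in TERA1 and 7.37 in NTERA2, so that 4 of 5 lines were below all ES lines. The difference was -0.62 (SE 0.19) and missed the threshold (limma adjusted p = 0.0925), although with quantile normalisation it was called at -0.73 (adjusted p = 0.0261). TP53I3 on feeders was at 8.11 in NTERA2, 8.61 in 2102Ep and 8.06 in 833KE, a difference from ES of 0.34 (SE 0.20, adjusted p = 0.426). TP53INP1, a cofactor of p53 in stress and autophagy, differed from ES by 0.32 on plastic (SE 0.38) and by -0.89 on feeders (SE 0.35, adjusted p = 0.221). APAF1, the scaffold of the apoptosome, differed by 0.26 and -0.19 (limma adjusted p = 0.723 and 0.83). SPATA18, which acts in mitochondrial quality control, ranged from 4.28 in NCCIT to 5.99 in TERA1. AEN, a nuclease of apoptotic cells, was highest in 833KE, at 9.28 on plastic and 9.60 on feeders as a mean of 9 probesets. FDXR, the mitochondrial ferredoxin reductase, and TRIAP1, a mitochondrial survival factor, differed from ES by -0.26 and 0.40 on plastic (adjusted p = 0.528 and 0.354).

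The genes of DNA repair and nucleotide supply had 0 of 4 clusters called in either comparison with ES. XPC and DDB2 recognise damage for nucleotide excision repair, POLH is the polymerase that copies past ultraviolet damage, and RRM2B is a ribonucleotide reductase subunit. Their differences on plastic were 0.19, -0.11, 0.41 and 0.59, with a smallest limma adjusted p of 0.477. RRM2B was at 10.01 in TERA1 and 9.27 in 833KE on plastic and at 7.01 in NTERA2 on feeders, which were among its highest and its lowest arrays. DDB2, whose window held the pair of decamers, was at 6.48 in NCCIT and between 7.46 and 8.53 in the other 13 arrays. XPC was highest in 2102Ep on feeders at 7.73 and lowest in 833KE on feeders at 5.85.

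SESN1, a sestrin that restrains mTORC1 under stress, was above all ES lines (highest 7.52) in 2102Ep, 833KE and TERA1 on plastic at 7.83, 8.16 and 8.36, and at 6.41 in NCCIT and 6.45 in NTERA2. The difference was 0.59 (SE 0.39, limma adjusted p = 0.464). GDF15, a secreted stress cytokine, had the highest difference of the 29 genes on feeders and was read as the mean of 8 probesets. In ES it was between 5.57 and 7.60 (median 6.10), with Shef5 highest. On feeders it was at 6.40 in NTERA2, 9.08 in 2102Ep and 9.87 in 833KE. The difference was 2.19 (SE 0.65, 95% interval 0.76 to 3.62) and was not called (limma adjusted p = 0.0849). It was called without NTERA2 (3.22, limma adjusted p = 0.00305) and without Shef5 (2.46, 0.0477). Without 833KE it was 1.48 (0.2) and without 2102Ep 1.88 (0.263). On plastic GDF15 was at 6.94 in NCCIT, 8.08 in 2102Ep, 7.18 in 833KE, 8.66 in TERA1 and 6.01 in NTERA2. That difference was 1.12 (SE 0.46, limma adjusted p = 0.159). It was called without NTERA2 (1.46, 0.0445) and was 0.80 without TERA1 (0.301).

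Across the EC lines, NCCIT and TERA1 stood at opposite ends for many members. On plastic, NCCIT was the lowest of the 5 EC lines in 13 of 25 clusters, against 29.4% of all clusters, and TERA1 was the highest in 12 of 25, against 20.4%. NCCIT was lowest for CDKN1A, FAS, PHLDA3, SPATA18, DDB2, POLH, RRM2B, SESN1, XPC, MDM2, PLK3 and both TNFRSF10C clusters. It was also the highest for ZMAT3, TNFRSF10A, TNFRSF10D, CCNG1 and TP53I3. The median deviation of the 25 clusters from the ES mean was 0.84 in TERA1, 0.64 and 0.70 in 833KE on plastic and feeders, 0.20 and 0.11 in 2102Ep, -0.26 and 0.02 in NTERA2, and -0.22 in NCCIT. Over all clusters the same median stayed between -0.02 and 0.07 in these 8 arrays. In TERA1 and in 833KE on plastic, 17 of the 25 lay above all 6 ES lines, against 21% and 20.6% of all clusters. The ES lines were also unevenly ordered. Of the 6, Shef5 was lowest in 9 of the 25 clusters and Shef3 in 8, against 19.2% and 10.4% of all clusters. H14 was highest in 8 of the 25, against 20.7%.

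The 6 members whose windows held the decamer had their lowest plastic array in NCCIT for 4 genes (DDB2, FAS, FDXR and SESN1) and in NTERA2 for 2 (AEN and PLK2). Their highest was TERA1 for 4 and 833KE for 2. AEN and FDXR were read here as means of their probesets. Over all member clusters, NCCIT was lowest in 13 of 25 and TERA1 highest in 12 of 25. Counts over 6 genes do not set the genes with the decamer apart from that. The SD was wider in EC on plastic than in ES in 23 of 25 clusters (92%), against 58.1% of all clusters. These orders are descriptions, without a test. For the 3 lines grown both ways, the line effect was tested over 6 arrays with limma's moderated F, a test chosen after seeing the data. It called 0 of 25 member clusters (0.291% of all clusters were called). The smallest adjusted p was 0.0686, for TNFRSF10B. An unadjusted p under 0.05 was reached by 18 of 25, against 19.5% of all clusters. 833KE had the highest mean of the 3 lines in 18 of the 25 clusters, and NTERA2 the lowest in 15. The same counts were not taken over all clusters, so these do not show that the members are special.

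**Figure D4:**
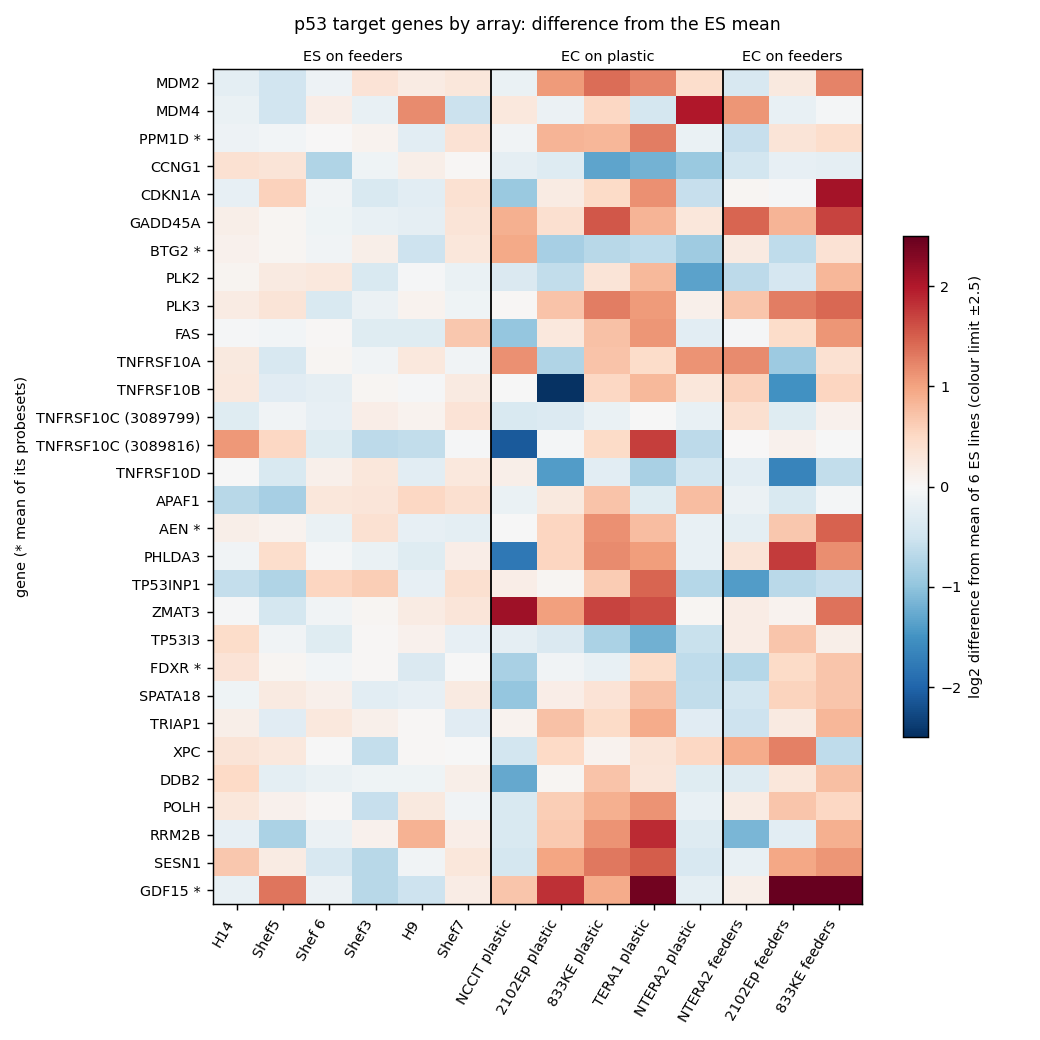
The map shows the log2 difference of each member (vertical axis) from the mean of the 6 ES lines in each array (horizontal axis), with colours limited at 2.5 in either direction. TERA1 and both 833KE columns are mostly above the ES mean, with member medians of 0.84, 0.64 and 0.70, and NCCIT and NTERA2 on plastic have medians of -0.22 and -0.26.

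With EC on feeders set against EC on plastic and the line taken as a block, 0 of 25 member clusters and 0 of all 22011 clusters (0%) were called by limma. An unadjusted p under 0.05 was reached by 6 of 25, against 14.9% of all clusters. TP53I3 had the smallest member p. It was at 8.11, 8.61 and 8.06 on feeders and at 7.37, 7.55 and 7.13 on plastic in NTERA2, 2102Ep and 833KE, higher on feeders in 3 of 3 lines with no overlap. The difference was 0.91 (SE 0.17, limma adjusted p = 0.237). TP53INP1 and APAF1 were lower on feeders in all 3 lines, by -0.88 (SE 0.19, adjusted p = 0.239) and -0.77 (SE 0.17, adjusted p = 0.241). APAF1 on feeders was at 7.89, 7.66 and 7.97 against 8.80, 8.26 and 8.75 on plastic, without overlap. Groups that did not overlap were found in 2 of 25 member clusters and in 14.2% of all clusters. GDF15 differed by 1.36 (SE 0.40, limma adjusted p = 0.186). It was called without NTERA2 (1.84, 0.043) and was 0.70 without 833KE (0.201). BTG2 differed by 0.79 (SE 0.23, adjusted p = 0.181). Over all clusters the smallest adjusted p of this comparison was 0.12. On simulated data a comparison of this size called none of the changed clusters, so the absence of calls does not show that the members were alike in both conditions.

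At the level of single probesets, 10 of 433 were called in EC on plastic against ES, against 2.81% of all probesets (2.07% higher and 0.745% lower). ZMAT3 had 5 of 13 probesets higher, among them 2706805 at 2.39 (SE 0.47, limma adjusted p = 0.0165). Its other probesets ran down to -0.37. MDM2 had 2 of 23 higher although its cluster was not called. Probeset 3421310 was at 6.96 in EC and 5.17 in ES, a difference of 1.78 (SE 0.27, adjusted p = 0.00522), and 3421315 differed by 1.24 (SE 0.26, adjusted p = 0.0242), while the median of the 23 was 0.80. EC and ES did not overlap in either, as in 3.33% of all probesets. CCNG1 had 2 of 20 lower, 2838615 by -1.41 (SE 0.32) and 2838616 by -1.03 (SE 0.23), with a median of -0.78 over the gene (adjusted p = 0.0318 and 0.0292). The GADD45A probeset 2341101 was higher by 1.32, but at the low levels of 3.41 and 2.09.

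In EC on feeders against ES, 7 of 433 probesets were called, against 0.953% of all probesets (0.61% higher and 0.344% lower). PLK3 had 5 of 17 higher, with 2334200 at 1.74 (SE 0.30, limma adjusted p = 0.0247), 2334206 at 1.89 and 2334211 at 1.53, and all 17 lay above 0. GADD45A had 2 of 8 higher, 2341094 at 1.69 and 2341099 at 1.52, and all 8 lay above 0. No member probeset was called in EC on feeders against plastic (0% of all). Exon usage, the difference of a probeset from the rest of its gene, was tested in EC on plastic against ES for 264 probesets of 19 members. It called 1, against 0.161% of all probesets tested. ZMAT3 probeset 2706816 was -1.60 from the rest of its gene (limma adjusted p = 0.0348), with levels of its own of 8.24 in EC and 8.61 in ES.

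**Figure D5:**
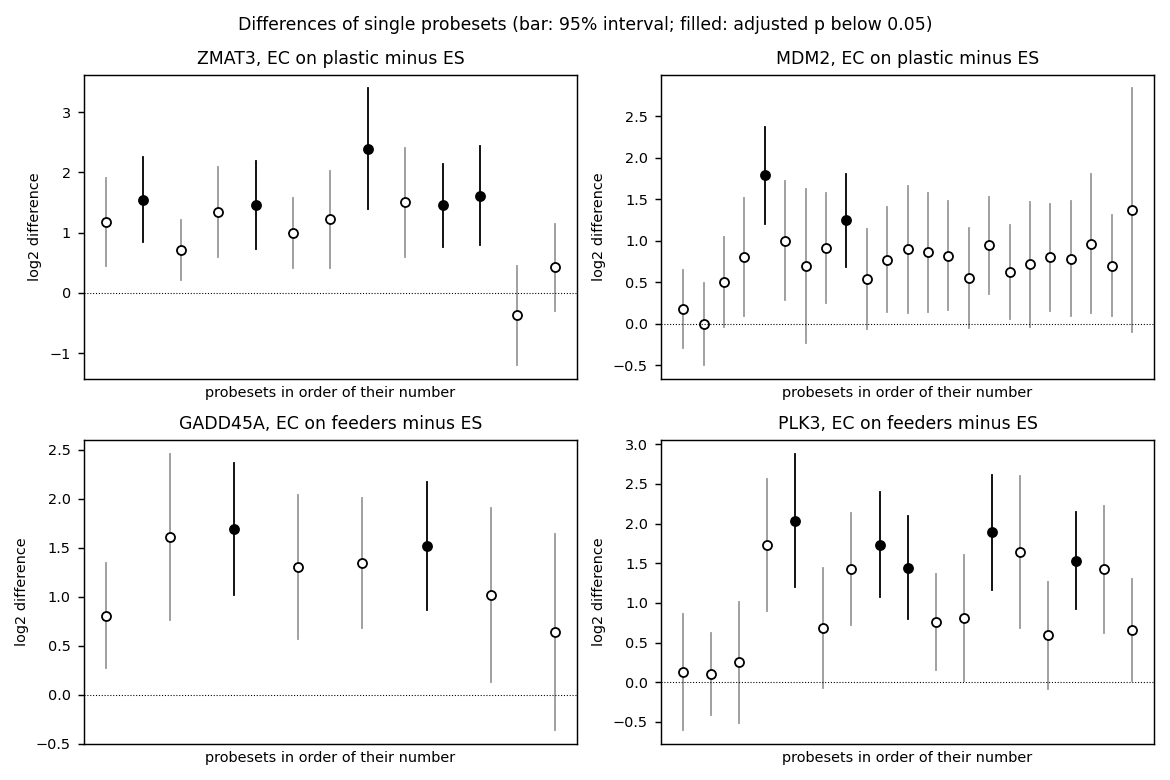
Each panel plots the log2 difference of the probesets of a gene (vertical axis) in the order of their number (horizontal axis), with 95% intervals, filled where the limma adjusted p was below 0.05. Of 13 ZMAT3 probesets 5 are filled and 2706816 lies at -0.37, and the PLK3 and GADD45A probesets on feeders all lie above 0.

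Other genes of the pathway were read from lists of regulators upstream of p53 and of further p53 targets. Of 17 upstream regulators measured of 21 listed, 1 was higher in EC on plastic and 0 were lower, against 4.6% of all clusters called. This was HUS1, part of the clamp that signals DNA damage, at 1.23 (SE 0.24, limma adjusted p = 0.0135). On feeders 0 of 17 were called by limma, against 2.29% of all clusters, with HUS1 at 0.82 (adjusted p = 0.0515). An unadjusted p under 0.05 was reached on feeders by 1 of 17 upstream regulators and by 17 of the 36 further targets below, against 17.6% of all clusters, and on plastic by 2 of 17 and 8 of 36, against 19.2%. Of 36 further targets measured of 40 listed, 3 were higher and 2 lower on plastic, beside the same 4.6% of all clusters. TIGAR, which lowers glycolytic flux, was at 1.89 (SE 0.36), the transcription factor KLF4 at 1.74 (SE 0.30), and CASP8, the caspase downstream of death receptors, at 1.45 (SE 0.28), while the matrix protein THBS1 was at -1.40 (SE 0.28) and BID, which CASP8 cleaves, at -0.47 (adjusted p = 0.012, 0.00761, 0.0136, 0.016 and 0.037). On feeders 4 of 36 were higher and 1 lower, beside 2.29% of all clusters. BID on plastic and CASP8 on feeders lay outside the 4 genes with the smallest p and were named after their values were seen. TIGAR differed by 1.75, CASP8 by 1.42, SESN2 by 1.08, CMBL by 1.00 and THBS1 by -1.43 (adjusted p = 0.00875, 0.0391, 0.0314, 0.0322 and 0.0119). The median over the 36 was 0.004 on plastic and 0.36 on feeders, against 0.005 and 0.04 over all clusters.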

How the data were processed

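The authors deposited log2 expression values of 14 arrays, at gene and exon level. RMA, Affymetrix Expression Console and limma are named in the submitters' processing notes, without versions. The log2 scale was read from the values, and settings and genome build are not given in the sources used here. Deposited values were used without renormalisation. Symbols came from the platform annotation, updated through RefSeq, and features with several symbols were not named. Tests were two-sided moderated tests of limma (version 3.58.1, under R 4.3.3), with p-values adjusted by Benjamini-Hochberg over all features and a threshold of 0.05, and were checked on simulated data, where EC on feeders against plastic made no call. Exon usage (diffSplice) also required a difference of 1. Figures used matplotlib 3.10.9. EC on feeders and on plastic were blocked by line, since same-line arrays deviated together (r = 0.405, 0.342 and 0.507). The members and lists were chosen with earlier results of these data known. Values in every EC array are given for members called, with an adjusted p under 0.1, or with a difference of at least 1 at gene level. The ES arrays of these members are given by their range and median. Other members are given by ranges, with up to 3 named per role where they were not accounted for singly, up to 3 called probesets per gene and the 4 called genes with the smallest p per pathway list and comparison, with the exceptions stated there. Alternatives were quantile normalisation, median centring, leaving out dim features (25th percentile), probeset means, pooled spread, array code, array subsets, and leaving out each array. The number of arrays limits the precision. In the comparisons with ES, p-values are set against the spread between lines. In EC on feeders against plastic and in the line effect test, they are set against what remains after line and growth condition.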

Additional observations from a re-analysis of the deposited data

Results flagged for a closer look

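In 4 of 60 groups of member values, the highest or lowest array stood apart from the rest of its group by Dixon's test, where chance gives about 1 in 20. Among ES lines, FAS was at 5.351 in Shef7, with the next ES line at 4.71. XPC was at 5.887 in Shef3, with the next at 6.459. In EC on plastic, TNFRSF10B was at 5.552 in 2102Ep, with the next line at 8.02. BTG2, as a mean of its probesets, was at 7.069 in NCCIT, with the next line at 5.473.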

How the results depend on the processing

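In EC on plastic against ES, 1 member was called. The count was 2 with quantile normalisation (CCNG1 and TP53I3), 2 without dim clusters and 2 with the mean of probesets (both GADD45A and ZMAT3), 2 with EC of both growth conditions (GADD45A and PLK3), and 0 with codes from 17, 0 with the array code as a block and 0 with the 3 lines also on feeders. It was 0 to 2 when each array was left out, with 0 without 833KE, TERA1, H14, Shef5, Shef 6, Shef3 or Shef7, TNFRSF10A alone without 2102Ep and MDM2 alone without NCCIT. The PHLDA3 difference turned to -0.091 without 833KE and -0.057 without TERA1. In EC on feeders against ES, 2 members were called, 1 with the spread of all 14 arrays, 3 with the mean of probesets (PHLDA3 added), 3 with codes from 17 (CDKN1A added, from 833KE as the 1 EC array, which says nothing of the group) and 1 to 3 when each array was left out. In EC on feeders against plastic the count of members was 0 in the 9 settings. This is no sign of stability, since the comparison in its main setting made no call on simulated data either. Over all clusters, it called 11 without dim clusters and 1 with no replicate block. Without the pairing by line, that is with no replicate block, 0 members were called at gene level and 0 probesets. At exon level the 10 called probesets on plastic became 1 with codes from 17 and 2 to 19 when each array was left out, and the 7 on feeders became 12 without dim probesets and 0 to 16 when each array was left out. The 1 exon usage call became 0 with codes from 17. Fewer arrays enter the subsets; otherwise the cause was not tested. NCCIT was lowest in 12 of 25 clusters with quantile normalisation and in 11 with median centring, and TERA1 was highest in 12 with each. With the mean of probesets, NCCIT was lowest in 13 and TERA1 highest in 14 of 29 members. Leaving out arrays at exon level, the GDF15 settings and those on line order were chosen after seeing the data.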
